A study of Mus musculus with 74 samples.

Results

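This report concerns 12 dual-channel mouse cDNA arrays on which the early response to TGF-β was measured with and without U0126, out of 74 arrays of the series. The 6 U0126 arrays were those titled S2WT_vs_U0126 at 1 h and 2 h, and the 6 S2WT arrays were those titled S2WT at 1 h and 2 h, with 3 arrays per set and time. S2WT is named by the labels as a line, and the series also holds lines named S3WT, S2KO and S3KO. U0126 is an inhibitor of MEK, the kinase that activates ERK. By the source labels, channel 1 of every array held RNA without TGF-β and channel 2 RNA with TGF-β, and on the U0126 arrays the labels of both channels name S2WT and U0126. The 0 h arrays of both sets, named as without TGF-β in both channels, and the 0.3 h arrays, named as with TGF-β in channel 2, served as an early baseline of 12 further arrays. No other genotype, agent, dose or cell type is given in the labels. They do not say when U0126 was added, and they do not say whether the numbered replicates came from separate cultures, so the p-values measure only the spread between these arrays. The values are log2 ratios, which carry no expression level, so the cells could not be checked against marker genes. The 4 h arrays were left out because labels of the S2WT arrays at that time conflict.

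TGF-β binds a pair of receptor kinases at the cell surface that phosphorylate Smad2 and Smad3, which join Smad4, enter the nucleus and change transcription within an hour or so. The same receptors can also switch on the RAS, RAF, MEK and ERK cascade, whose end product phosphorylates transcription factors of the ETS and AP-1 families and turns on immediate-early genes. The comparison asks which early TGF-β targets depend on MEK.

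The direction of the ratios is not stated. It was taken as channel 2 over channel 1, so a log2 ratio above 0 stands for more RNA with TGF-β, which is likely and not certain. Because the inhibitor is named in both channels, its effect on cells without TGF-β would cancel within an array. The titles could also be read as naming S2WT and U0126 as the channels, in which case a ratio would hold an effect of the inhibitor itself. Each array was centred on its median, so values are differences from that median. The 12 arrays measured between 8068 and 8672 of 8976 probes. The signal behind each ratio is not known, and precision is limited by there being 3 arrays per group. Arrays of the same group also correlated weakly across probes. Over the 24 S2WT and U0126 arrays at 0 to 2 h, these correlations had a median of 0.10 and ranged from 0.01 to 0.31.

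One array stood apart. Its identity as a treated 1 h array was examined with genes chosen on other arrays: S3WT and S2KO, whose 24 arrays at 0, 0.3, 1 and 2 h share none with the comparison, had 22 probes that rose at 1 and 2 h, and 14 of those were measured on all 24 arrays of S2WT and U0126. Over these 14 probes the array labelled U0126 1 h replicate 1 had a mean log2 ratio of 0.23. The other U0126 1 h arrays had 1.13 and 0.92, the S2WT 1 h arrays had 0.91 to 1.02, and the 2 h arrays had 0.95 to 0.99 in S2WT and 0.83 to 1.06 in U0126. The 0.3 h arrays of U0126 ranged from 0.32 to 0.50 and its 0 h arrays from 0.19 to 0.30, so the array at 0.23 lay among its untreated arrays. It was the lowest of its 3 arrays for 10 of the 14 probes, and for 5 of the 14 it lay within or above the S2WT 1 h arrays. Counts of calls, the medians of the 2 target lists and many of the genes are given with and without it. Estimates for others, among them Arid5b, Tgif1, Noct, Fos, Wnt5b, Slc29a1 and Eif1a, are given with all arrays only. Omission of that array was one of the alternatives set out for every array, and it was singled out after its values were seen. The 14 probes include those of Hbegf, Cxxc5, Gadd45b, Snai1 and Csdc2, so their values without that array are descriptions and support no call.

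**Figure D1:**
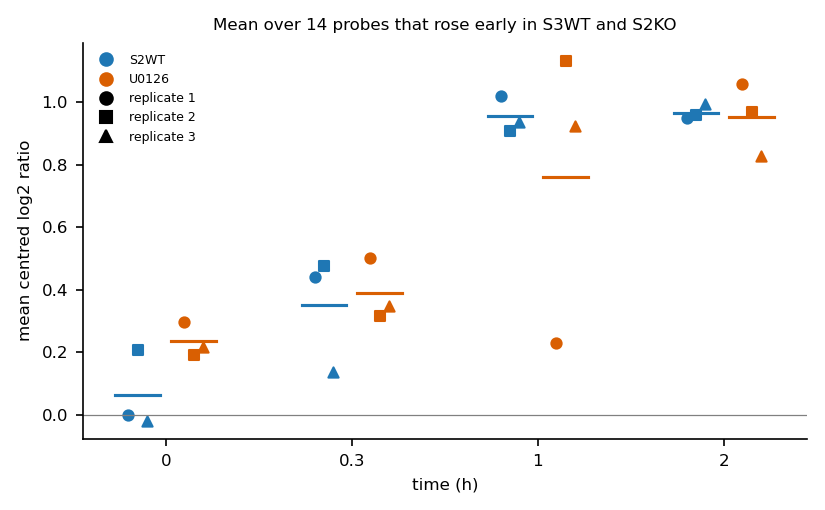
Mean centred log2 ratio on each of the 24 S2WT (blue) and U0126 (orange) arrays over 14 probes that rose at 1 and 2 h in S3WT and S2KO, against time in hours; symbols mark the replicate number and short lines the mean of 3 arrays. The array labelled U0126 1 h replicate 1 sits at 0.23, while the other 11 arrays at 1 and 2 h sit between 0.83 and 1.13.

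Arid5b, a DNA-binding subunit of a histone demethylase complex, fell after TGF-β in S2WT and in U0126, and it was the only probe called in either set with all arrays. A response was defined as the mean of the 1 and 2 h groups minus the mean of the 0 and 0.3 h groups of the same set, with 12 arrays each. Since the 0.3 h arrays were already treated, a gene that responds within that time has an understated response. With all arrays, limma called 1 of 8202 probes in S2WT (0.0122%) and 1 of 8198 in U0126 (0.0122%) at a Benjamini-Hochberg adjusted p under 0.05, against 381 (4.65%) and 623 (7.6%) probes at an unadjusted p under 0.05. Without U0126 1 h replicate 1, in fits whose estimate of the spread pools both sets, 8 probes were called in S2WT (0.0975%) and 8 in U0126 (0.0976%), with 432 (5.27%) and 718 (8.76%) at an unadjusted p under 0.05. Of these calls, 5 in S2WT and 3 in U0126 were among the 14 probes whose low values had singled the array out. The 5 called in both sets were Hbegf, Cxxc5, Ccn1, an unnamed probe and Arid5b, and the first pair of these belong to the 14.

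Arid5b read -0.32, -0.32 and -0.65 at 1 h in S2WT, with -1.49 and -1.22 on the 2 arrays that measured it at 2 h. In U0126 it read -0.08, -0.32 and 0.09 at 1 h and -1.27, -1.41 and -1.21 at 2 h. The 2 h values of the sets overlapped, and all lay below the 1 h values. Arid5b fell by 0.97 ± 0.12 in S2WT (limma adjusted p = 0.00386) and by 0.76 ± 0.12 in U0126 (limma adjusted p = 0.0463). The call in S2WT held under all 32 alternatives tried, while the call in U0126 was lost under 21 of 32, with a limma adjusted p of 0.105 under a replicate block and of up to 0.337 over the alternatives. The difference between the sets was 0.21, with a 95% interval of -0.10 to 0.51.

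Hbegf encodes heparin-binding EGF-like growth factor, a membrane-anchored ligand of the EGF receptor. Its log2 ratios in S2WT were 1.51, 1.58 and 0.91 at 1 h and 1.83, 1.87 and 1.82 at 2 h. In U0126 they were -0.47, 1.83 and 1.41 at 1 h and 2.00, 1.71 and 1.43 at 2 h. The groups overlapped, and the array that stood apart was the only one of the 12 below 0. The response on the log2 scale was 1.38 ± 0.31 (SE) in S2WT and 1.26 ± 0.31 in U0126, with limma adjusted p of 0.183 and 0.317. With that array left out the values were 1.38 ± 0.21 and 1.60 ± 0.22. The difference of U0126 from S2WT at 1 and 2 h was -0.27 with a 95% interval of -1.01 to 0.47, and 0.06 with an interval of -0.33 to 0.45 without that array.

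Ccn1 encodes a secreted matricellular protein that is also induced by serum and by ERK signalling. It read 0.78, 0.62 and 0.31 at 1 h and 1.10, 0.60 and 0.72 at 2 h in S2WT. In U0126 it read 0.37, 0.75 and 0.51 at 1 h and 0.88, 1.17 and 0.77 at 2 h. Both sets lay above 0 on every array and overlapped at both times. Its response was 0.73 ± 0.13 in S2WT and 0.72 ± 0.13 in U0126 with all arrays, with limma adjusted p of 0.0588 and 0.10. With all arrays it therefore passed in neither set. Ccn1 is not among the 14 probes, but the array that stood apart held its lowest 1 h value in U0126, 0.37. With that array left out Ccn1 stood at 0.73 ± 0.13 in S2WT and 0.76 ± 0.14 in U0126, with limma adjusted p of 0.0331 and 0.0431. As the array was singled out after its values were seen, these too are descriptions. The difference at 1 and 2 h was 0.05, with a 95% interval of -0.26 to 0.37, and 0.10 without that array.

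Cxxc5 encodes a CXXC-type zinc finger protein. On probe 7611 it had 0.93, 1.10 and 0.92 at 1 h and 0.99, 1.67 and 1.18 at 2 h in S2WT, against -0.65, 1.41 and 0.88 at 1 h and 1.35, 1.54 and 1.21 at 2 h in U0126. The lowest value again came from the array that stood apart. The response was 0.76 ± 0.24 in S2WT and 0.51 ± 0.24 in U0126, with limma adjusted p of 0.689 and 0.649, and without that array the U0126 value was 0.81 ± 0.14. The other Cxxc5 probe, 1031, had a response of 0.91 ± 0.26 in S2WT and 0.80 ± 0.26 in U0126, with limma adjusted p of 0.492 and 0.458, and the U0126 value was 1.08 ± 0.20 without that array.

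Gadd45b and Snai1 are direct Smad targets; the first encodes a growth arrest and stress protein and the second a repressor of E-cadherin. Gadd45b had 2.10, 2.01 and 1.77 at 1 h and 1.73, 1.66 and 1.66 at 2 h in S2WT. In U0126 it had 0.75, 2.08 and 1.62 at 1 h and 1.64, 1.61 and 1.01 at 2 h. All 6 U0126 values were under the highest S2WT value, and 5 of the 6 were under the lowest S2WT value. The difference was -0.37 with a 95% interval of -0.84 to 0.10 (limma adjusted p = 0.899), and -0.19 with an interval of -0.53 to 0.14 without the array that stood apart. Snai1 had 1.93, 1.62 and 1.90 at 1 h and 1.25, 1.15 and 1.14 at 2 h in S2WT, and 0.67, 2.10 and 1.83 at 1 h and 1.26, 1.09 and 1.32 at 2 h in U0126. Its difference was -0.12 with an interval of -0.60 to 0.36, and 0.09 with an interval of -0.15 to 0.33 without that array. The response of Gadd45b was 0.95 ± 0.20 in S2WT and 0.52 ± 0.20 in U0126, with limma adjusted p of 0.130 and 0.570. That of Snai1 was 0.98 ± 0.21 and 0.65 ± 0.21, with limma adjusted p of 0.146 and 0.468, so neither gene passed in either set. Without the array that stood apart the U0126 responses were 0.71 ± 0.17 for Gadd45b and 0.87 ± 0.17 for Snai1.

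The remaining probes called in S3WT and S2KO can be set beside these. There were 23 of 7722 such probes (0.298%), 22 higher and 1 lower, and the lower one was Arid5b. In their own 24 arrays Hbegf had a response of 1.48, Gadd45b 1.35, Noct 1.13, Csdc2 0.96, Snai1 0.95, Skil 0.93, Klf10 0.92, Foxo1 0.76, Gpsm1 0.71 and Jarid2 0.68. All 23 had the same sign in U0126 and 21 had it in S2WT. At an unadjusted p under 0.05 and with that sign, 17 were found in S2WT, 12 in U0126 and 11 in both, where 2.83% of all probes in S2WT and 3.95% in U0126 were higher with such a p. Without the array that stood apart the median response of the 22 higher probes was 0.70 in S2WT and 0.47 in U0126. Of the 22, 12 were larger in S2WT, against 15 with that array. As 14 of these 22 probes had served to single the array out, a rise of U0126 over them without it was built in. The shift from 15 to 12 is therefore a description and no support for a like response.

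Several of these probes had a larger value in S2WT whose difference did not pass. Csdc2, which encodes an RNA-binding cold shock domain protein, had a response of 0.98 ± 0.19 in S2WT and 0.38 ± 0.19 in U0126 on probe 2622. Its difference after subtraction of the early baseline was -0.60 with a 95% interval of -1.16 to -0.05 (unadjusted p = 0.0349, limma adjusted p = 0.931), and -0.52 without the array that stood apart. Noct, a circadian phosphatase gene, had 0.88 ± 0.29 and 0.27 ± 0.29, with a difference of -0.61 and an interval of -1.48 to 0.25. Skil, the Smad corepressor SnoN, had 0.53 ± 0.15 and 0.36 ± 0.16, with a difference of -0.18 and an interval of -0.63 to 0.28. Creb3l2 ran the other way with 0.42 ± 0.19 and 0.53 ± 0.19. Of all 23 probes, 15 had a subtracted difference below 0 and 8 above 0, where 47.7% of all tested probes lay above 0, and none was called. The largest in size was that of Gabpb2, at 0.97, and Luzp1 had 0.59.

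**Figure D2:**
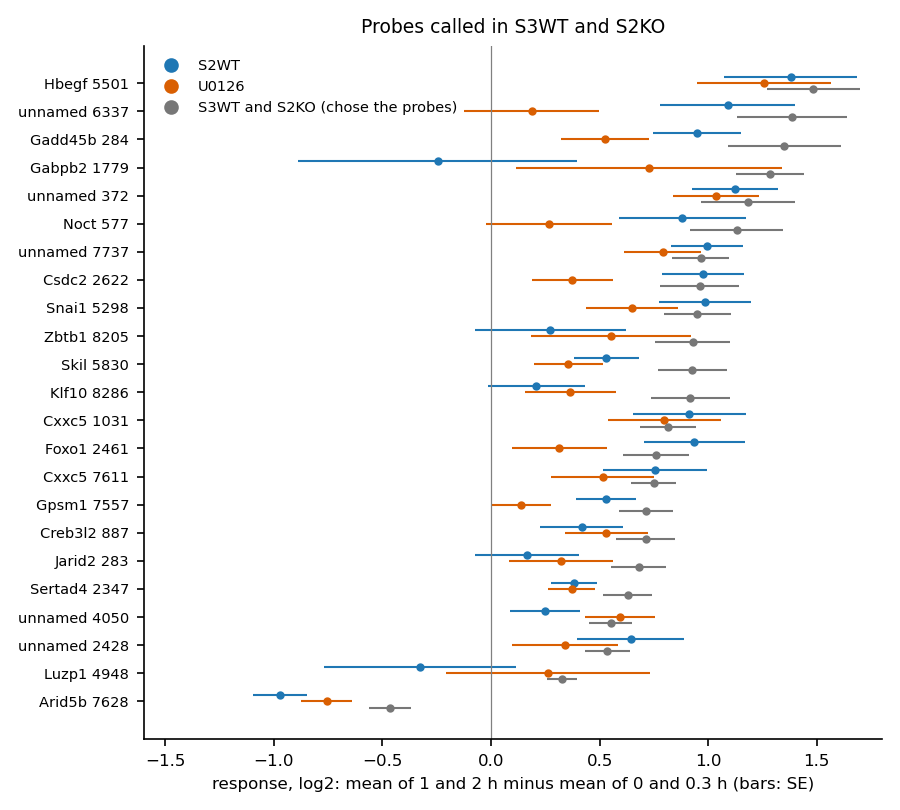
Response on the log2 scale, the mean of 1 and 2 h minus the mean of 0 and 0.3 h, of the 23 probes called in S3WT and S2KO, named by symbol and probe, in S2WT (blue), U0126 (orange) and the 24 arrays that chose them (grey); bars are standard errors and all 12 arrays of each set are used. All 23 orange points have the sign of the grey ones, and the blue point lies right of the orange one for 15 of the 22 higher probes.

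No probe of the array was called as different between U0126 and S2WT. With time as a factor, limma called 0 of 8322 probes at 1 and 2 h (0%), and 276 had an unadjusted p under 0.05 (3.32%), 145 higher (1.74%) and 131 lower (1.57%) in U0126. The smallest adjusted p was 0.899. After each set's 0 and 0.3 h mean was subtracted, 0 of 7721 probes were called and 288 had an unadjusted p under 0.05 (3.73%); the smallest adjusted p was 0.161, for an unnamed probe. Both comparisons again had 0 calls without the array that stood apart, with 259 (3.11%) and 281 (3.64%) probes at an unadjusted p under 0.05. At 1 h alone 0 of 8638 and at 2 h alone 0 of 8574 probes were called, with 278 (3.22%) and 225 (2.62%) at an unadjusted p under 0.05. Without the array that stood apart the 1 h difference had 0 calls and 342 probes at an unadjusted p under 0.05 (3.96%), with a smallest adjusted p of 0.194 by limma. For the change of the difference from 1 to 2 h limma called 0 of 8322 probes, with 176 at an unadjusted p under 0.05 (2.11%), and again 0 with 240 (2.88%) without that array. The 0 and 0.3 h arrays, compared the same way, also gave 0 calls of 8057, with 271 at an unadjusted p under 0.05 (3.36%).

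These fits could have missed changes of moderate size, and larger ones too. The 95% interval of the difference at 1 and 2 h reached a median of 0.51 on the log2 scale to either side, with quartiles of 0.35 and 0.91. After subtraction the median was 0.77. These intervals are per probe and unadjusted, while calls were adjusted over all probes. An absent call therefore leaves differences of that size, and larger ones, possible. Wnt5b, with a difference of -2.84 at 1 and 2 h, was not called.

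**Figure D3:**
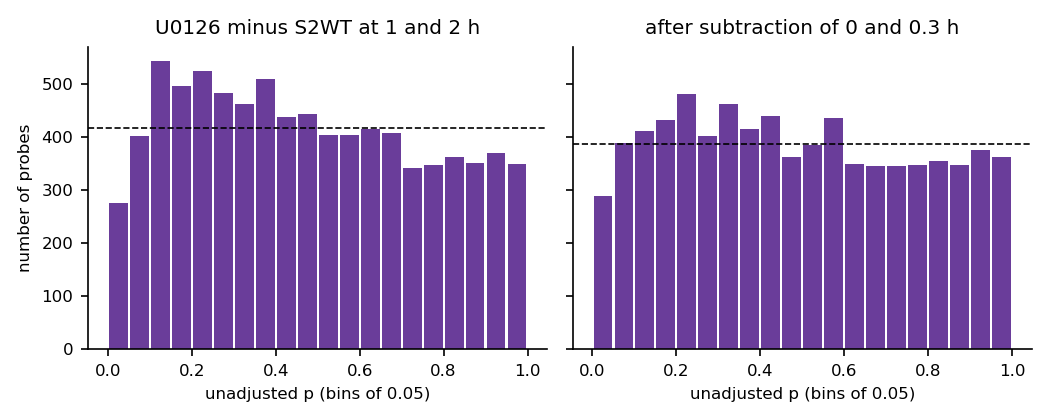
Number of probes in each bin of 0.05 of the unadjusted limma p for U0126 minus S2WT at 1 and 2 h (left, 8322 probes) and after subtraction of 0 and 0.3 h (right, 7721 probes); dashed lines mark an even spread over the bins. The first bins hold 276 and 288 probes, both under the dashed line.

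Ier2 had the smallest p of the ERK output genes in both comparisons. It is an immediate-early gene that encodes a nuclear protein. At 2 h its log2 ratio was 1.59, 1.62 and 1.82 in S2WT and 0.60, 0.66 and 0.26 in U0126, and the sets did not overlap. The share of all probes without overlap at 2 h alone was not counted. At 1 h it was 1.26, 1.00 and 0.72 in S2WT and 0.36, 0.92 and 0.78 in U0126, and the sets overlapped. At 0 h it was 0.58, 0.54 and 0.10 in S2WT, with 0.89 and 0.54 on the 2 U0126 arrays that measured it, and at 0.3 h it was 0.94, 0.96 and 0.38 in S2WT and 0.75, 0.89 and 0.64 in U0126. The values on the 0 h arrays, where neither channel had TGF-β by the labels, were thus already above the array median.

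The Ier2 difference at 1 and 2 h was -0.74 ± 0.19 (SE), with a 95% interval of -1.17 to -0.31 and an unadjusted p of 0.00292 by limma. After subtraction it was -0.89 ± 0.22, with an interval of -1.36 to -0.42 and an unadjusted p of 8.94e-04. Neither passed over all probes, with limma adjusted p of 0.899 and 0.931. At 2 h alone the difference was -1.17, with an interval of -1.65 to -0.69, an unadjusted p of 2.89e-04 and a limma adjusted p of 1.00. The response was 0.75 ± 0.15 in S2WT and -0.14 ± 0.16 in U0126. Without the array that stood apart the difference was -0.71 and after subtraction -0.81. Leaving out each array in turn gave -0.85 to -0.64 and -0.98 to -0.80. In S3WT and S2KO the response of Ier2 was 0.33, with a limma adjusted p of 0.901.

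Other immediate-early genes were measured less evenly. Nr4a1, an orphan nuclear receptor gene, had 0.50, 0.16 and 0.75 at 1 h and 0.32, 0.08 and 0.74 at 2 h in S2WT on probe 5980. In U0126 it had 0.09, 0.23 and 0.01 at 1 h and 0.24, 0.02 and -0.07 at 2 h. The ranges overlapped, and 4 of the 6 S2WT values lay above every U0126 value. Its difference was -0.34 ± 0.15 with an unadjusted p of 0.0400 and a limma adjusted p of 0.899, and without the array that stood apart -0.33 with an unadjusted limma p of 0.0587. Its second probe, 649, gave -0.78 with a 95% interval of -1.89 to 0.34. Fos, a subunit of AP-1, was measured on 4 S2WT and 5 U0126 arrays, at 1.46, 1.15, -0.02 and 2.10 against -0.76, 0.81, -0.05, 0.92 and 0.54, and gave -0.89 with an interval of -2.07 to 0.28. Mcl1, an inhibitor of apoptosis, was higher in U0126 by 0.79 with an interval of 0.09 to 1.49 and a limma adjusted p of 0.899. Myc gave -0.34 with an interval of -0.89 to 0.21.

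As a list, the ERK output genes had 22 probes of 20 genes tested, and none was called. The median difference was -0.06, beside -0.02 over all 8322 probes, with 6 probes above 0 and 16 below, where 47.0% of all probes lay above 0. An unadjusted p under 0.05 was found for 2 probes lower in U0126 (Ier2 and Nr4a1) and 1 higher (Mcl1), 3 of 22, where 3.32% of all probes had one. After subtraction the median was -0.02 over 21 probes, with 10 above 0 and 11 below. Without the array that stood apart the median was -0.00 before and 0.03 after subtraction, and 5 of the 22 probes changed sign. Of the 22 intervals, 12 reached beyond a change of 1 on the log2 scale.

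The TGF-β early targets had 28 probes of 21 genes tested, and none was called. Their median difference was -0.11, with 10 above 0 and 18 below, where 47.0% of all probes lay above 0. After subtraction the median was -0.16. Leaving out the array that stood apart gave medians of -0.03 and -0.12, and moved single probes by -0.24 to 0.32, with 6 of the 28 changing sign. Only Tgif1 had an unadjusted p under 0.05, 1 of 28, on probe 3052, where 3.32% of all probes had one. Of the 28 intervals, 23 lay within a change of 1 in either direction. These medians are relative to the array median: with the arrays left uncentred, the median of all probes was 0.22 and that of the TGF-β targets 0.12, so the sign of small differences turned while the list stayed below the median probe.

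Among the corepressors of the list, 1 of the 2 Tgif1 probes had the low p. Tgif1, which encodes a homeodomain repressor that binds Smads, had 1.05, 0.99 and 1.14 at 1 h in S2WT and 0.82, 0.83 and 0.81 in U0126. The sets did not overlap at that time, but the share of all probes without overlap at 1 h alone was not counted. At 2 h it had 0.36, 0.63 and 0.82 in S2WT and 0.49, 0.27 and 0.33 in U0126, and they overlapped. The difference was -0.24 ± 0.11 with an unadjusted limma p of 0.0448, and its probe 6325 gave -0.10. Over the alternatives tried, that limma p for probe 3052 ranged from 0.0183 to 0.977. After subtraction probe 3052 stood at -0.26 with an unadjusted limma p of 0.208. The array that stood apart was not low for Tgif1, at 0.82. The Skil difference was -0.20 with a 95% interval of -0.56 to 0.15, was -0.23 without the array that stood apart, and turned to 0.04 without centring. The 3 probes of Ski, its paralog, gave -0.23 to 0.23.

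The feedback inhibitors of the pathway showed no common direction. Smad7, which blocks the receptors, gave -0.11 with a 95% interval of -0.62 to 0.41, and 0.03 without the array that stood apart. Smurf1, a ubiquitin ligase that works with Smad7, gave -0.01 with an interval of -0.34 to 0.32, and 0.11 without that array. Smurf2 had 3 probes, at 0.28, 0.08 and -0.48, and after subtraction probe 2306 stood at 0.61 with an unadjusted limma p of 0.0130, while probe 5215 stood at 0.04. Of the other targets, Klf10, the TGF-β-inducible early factor, gave 0.04 with an interval of -0.41 to 0.49, and -0.07 without that array. Bhlhe40, a circadian repressor gene, gave -0.38 with an interval of -0.95 to 0.19, and -0.26 without it. Cdkn1a, the p21 inhibitor of cyclin-dependent kinases, gave -0.20 before and -0.52 after subtraction, the latter with an unadjusted limma p of 0.0485, and -0.04 and -0.34 without it.

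**Figure D4:**
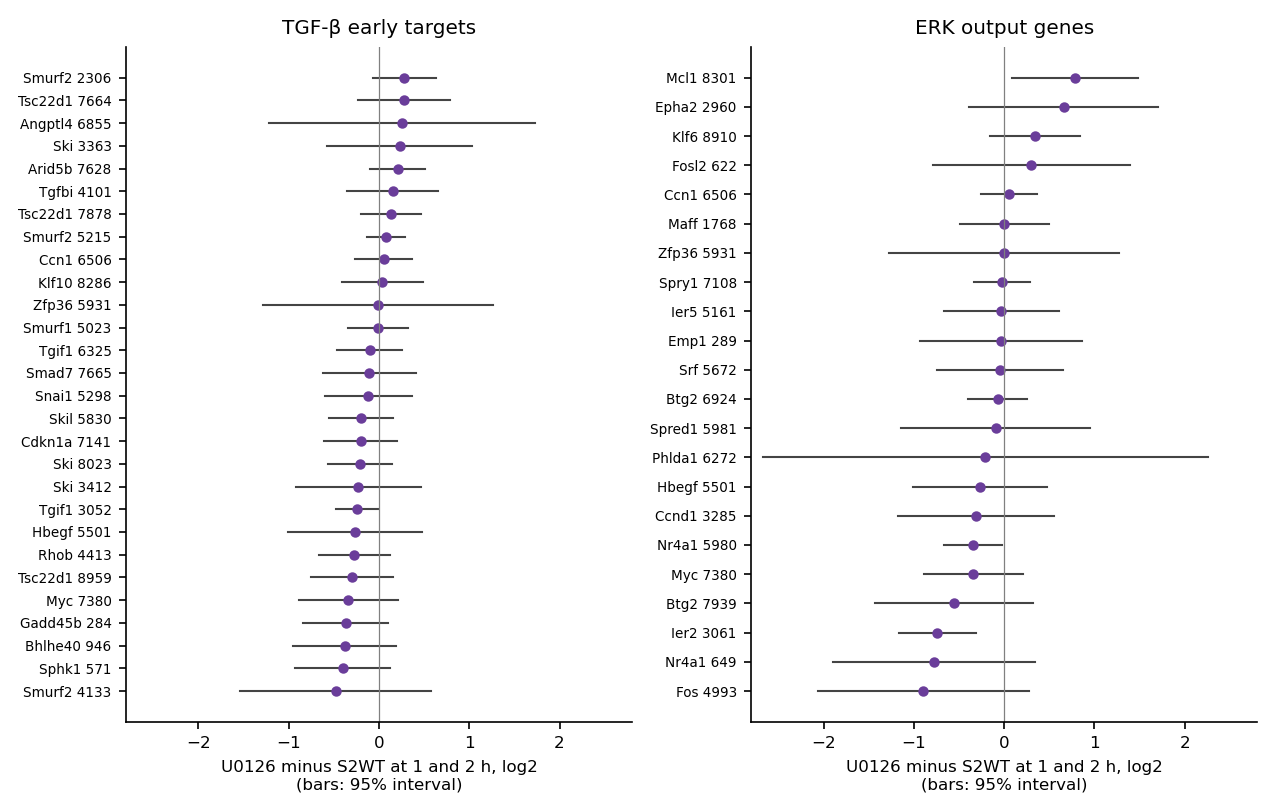
U0126 minus S2WT at 1 and 2 h on the log2 scale for every tested probe of the TGF-β early targets (left, 28 probes) and ERK output genes (right, 22 probes), with 95% intervals from limma; labels give symbol and probe, and genes in both lists appear in both panels. Points left of 0 number 18 and 16, and the intervals of Tgif1 on the left and of Ier2, Nr4a1 probe 5980 and Mcl1 on the right do not include 0.

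**Figure D5:**
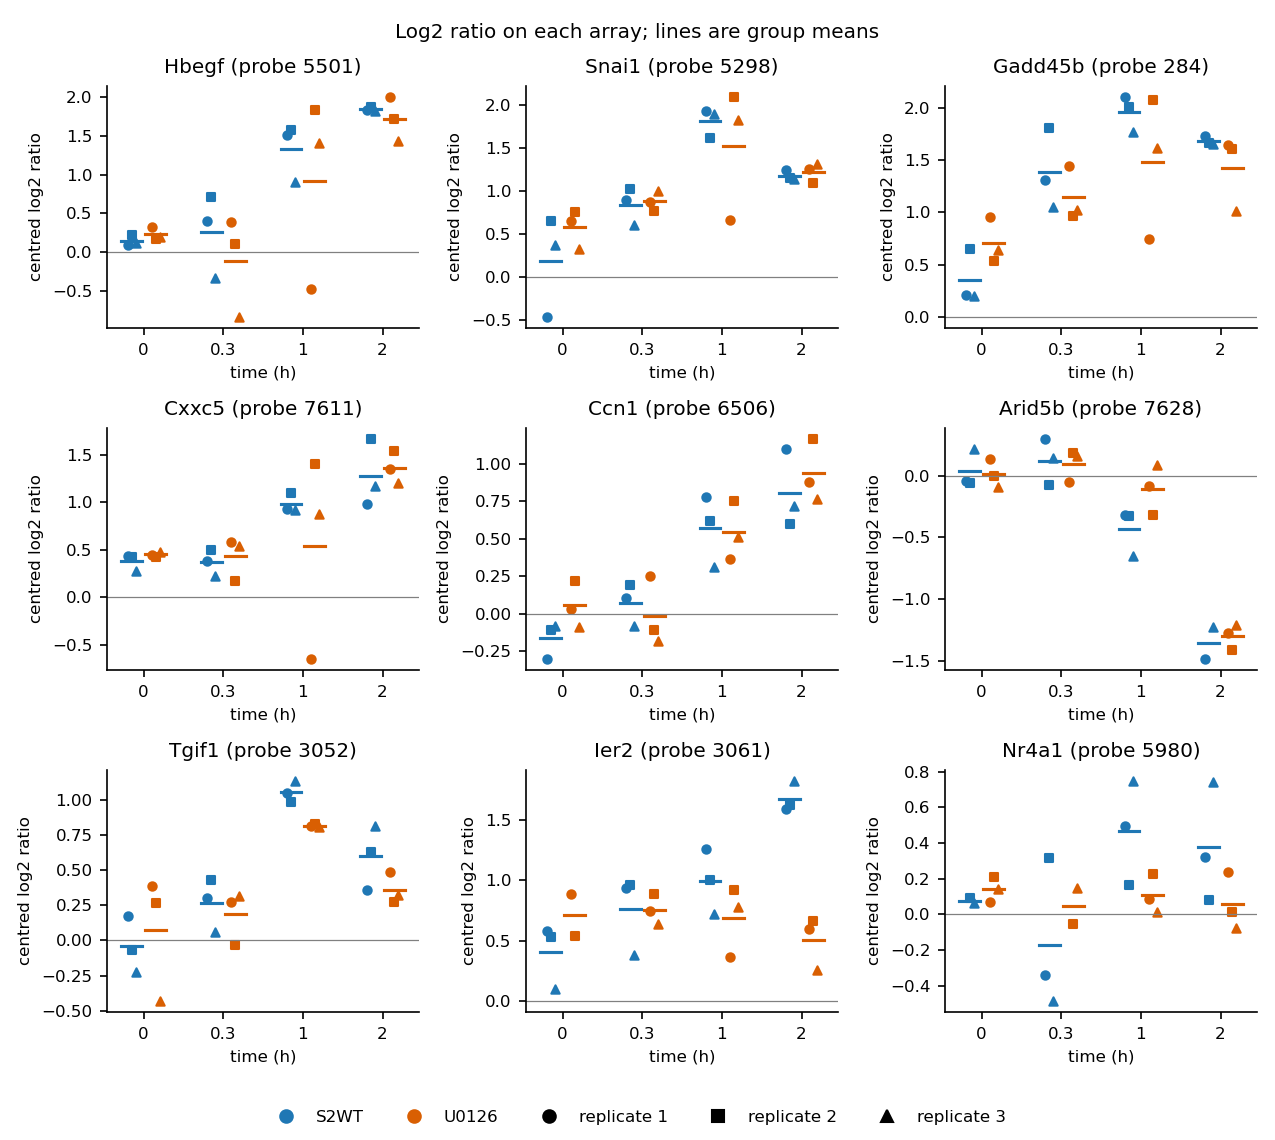
Centred log2 ratio of 9 probes on every S2WT (blue) and U0126 (orange) array at 0, 0.3, 1 and 2 h, with symbols for the replicate number and short lines for the group mean. Hbegf, Snai1, Gadd45b and Cxxc5 show the low U0126 1 h replicate 1 array, Ier2 reads 1.59 to 1.82 in S2WT and 0.26 to 0.66 in U0126 at 2 h, and Arid5b is below -1.2 on every array that measured it at 2 h.

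The sequence just upstream of the start can be set beside these values for genes that RefSeq's promoter table lists. Shown are 250 bases before the start on GRCm38.p6, read 5′ to 3′ on the strand of the gene, for Arid5b, called in both sets with all arrays, for Ccn1, called in both only without the array that stood apart, and for Nr4a1, whose difference of -0.34 had a limma adjusted p of 0.899. They are Ccn1 at chr3:145649986-145650235 on the minus strand, Arid5b at chr10:68278727-68278976 on the minus strand and Nr4a1 at chr15:101266596-101266845 on the plus strand. Capitals mark matches on either strand to the Smad-binding letters CAGAC, the ETS core GGAAGT, the AP-1 letters TGANTCA, the CRE half-site TGACG, here in its reverse complement, and the CArG box of serum response factor.
Ccn1: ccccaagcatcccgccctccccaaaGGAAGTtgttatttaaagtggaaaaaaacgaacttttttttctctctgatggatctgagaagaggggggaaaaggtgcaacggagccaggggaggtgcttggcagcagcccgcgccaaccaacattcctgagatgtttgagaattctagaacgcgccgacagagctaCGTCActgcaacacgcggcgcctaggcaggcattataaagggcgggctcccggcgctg
Arid5b: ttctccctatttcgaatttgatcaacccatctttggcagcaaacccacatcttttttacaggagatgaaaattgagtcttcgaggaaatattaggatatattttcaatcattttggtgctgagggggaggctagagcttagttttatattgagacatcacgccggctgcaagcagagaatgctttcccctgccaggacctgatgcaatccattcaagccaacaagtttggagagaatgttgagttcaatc
Nr4a1: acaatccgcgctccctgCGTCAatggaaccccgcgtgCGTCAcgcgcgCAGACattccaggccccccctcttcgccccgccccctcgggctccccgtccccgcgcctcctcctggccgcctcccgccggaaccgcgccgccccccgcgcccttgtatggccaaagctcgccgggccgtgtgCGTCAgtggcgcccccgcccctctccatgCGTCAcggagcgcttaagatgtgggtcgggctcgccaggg
Ccn1 held 1 ETS core, 225 bases before the start, and 1 CRE half-site, 58 bases before it. Nr4a1 held 1 CAGAC, 202 bases before the start, and 4 CRE half-sites at 233, 213, 69 and 40 bases. The Arid5b window held none of these letters. Of 32851 promoters in the table, 42.2% held CAGAC in the same window, 19.7% GGAAGT, 17.8% TGACG, 6.75% TGANTCA and 1.47% a CArG box.

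Outside these lists, some of the probes with the smallest p were sparse or widely spread, while others, such as Eif1a and Aqr, were measured on all 12 arrays. Wnt5b, a WNT ligand gene, had the smallest p of those lower in U0126 at 1 and 2 h. It read -0.57, -0.67, 0.81, 1.02, 1.25 and 0.92 in S2WT and -2.79, -1.42, -4.06, -1.48 and -1.92 on the 5 U0126 arrays that measured it, so the sets did not overlap. Its difference was -2.84 ± 0.55 with an unadjusted p of 4.21e-04 and a limma adjusted p of 0.899. Its 0 h arrays of U0126, with no TGF-β in either channel, already ranged from -0.31 to 4.69.

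Slc29a1, a nucleoside transporter gene, had 0.82, 0.51, 0.81, 0.56 and 0.76 on 5 S2WT arrays and -0.17, 0.15, 0.31, 0.19, 0.18 and 0.16 in U0126 on probe 7. The sets did not overlap. The difference was -0.55 ± 0.13, and its probes 5387 and 6178 gave -0.78 and -0.26, all with a limma adjusted p of 0.899. Eif1a, a translation initiation factor gene, was between -0.51 and -0.20 in S2WT and between 0.02 and 0.24 in U0126 on probe 4099, a difference of 0.44 ± 0.10, while its probe 6979 gave 0.28. In all, 13 probes had every U0126 array above every S2WT array and 12 had the reverse, 0.3% of 8322. Others by the same ranking were Aqr (0.72), Ctss (0.76), Zfp750 (1.46) and Evx2 (1.88), higher in U0126, and Cep97 (-1.80) and Grina (-0.97), lower. After subtraction, Lman1 (0.52), Furin (2.87) and Hnrnph2 (1.57) had the smallest p in the higher direction, and Ier2, Pdia2 (-1.88) and Slc29a1 (-0.71) in the lower. Before subtraction Pdia2 differed by only -0.05 at 1 and 2 h, and Furin by 1.25, so these values rest largely on the baseline arrays. None of the probes named here had a limma adjusted p under 0.05.

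No component of either pathway was called. The RAS-ERK components had 28 probes of 18 genes tested, 0 called, and a median difference of -0.05, with 24 of 28 intervals within a change of 1. Egfr, the receptor of the Hbegf ligand, had the smallest p among them, at 0.35 with an unadjusted p of 0.0278 and a limma adjusted p of 0.899. The TGF-β pathway components had 30 probes tested, 0 called, a median of -0.04 and a range of -0.80 to 1.25, and 6 of the 30 intervals reached beyond a change of 1. After subtraction they ranged from -1.69 to 2.87, and 10 of 30 intervals did so. The co-receptor gene Tgfbr3 had 0.35 on probe 7348 with an unadjusted limma p of 0.0194.

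The other gene groups also had 0 calls. Medians were -0.02 for 27 matrix and protease probes, 0.05 for 25 actin and adhesion probes, 0.01 for 24 probes of G1 and S phase genes, -0.18 for 13 stress response probes and -0.03 for 16 ribosomal protein probes. After subtraction the ribosomal protein median was -0.34, with 13 of 15 probes below 0 and 1 at an unadjusted limma p under 0.05, beside -0.02 over all probes. Part of that shift lies in the baseline: at 0 and 0.3 h all 15 tested probes were higher in U0126, with a median of 0.18. Ccnd2, a G1 cyclin gene, had -0.98 and Txnip, a thioredoxin-binding protein gene, had -0.52, with unadjusted p of 0.0479 and 0.0349 and limma adjusted p of 0.899. Markers of fibroblasts (8 probes), epithelium (1), endothelium (4) and leukocytes (4) had medians of 0.03, -0.18, -0.32 and -0.50, and none was called.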

How the data were processed

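Values were the log2 ratios of the 2 channels as deposited by the authors, 1 column per array. The dyes used by the authors, and how arrays were scanned, background-corrected and normalised, were not given in the sources used here. Ratios above 16.6 (1344 values at 16.61, the log2 of a ratio of 100000) and blank cells (5.82% on the 12 arrays) were treated as missing, and each array was centred on its median. The medians as deposited ranged from -0.589 to -0.055 on the 12 arrays. A probe was tested when at least 2 arrays measured it in every group of the contrast.

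Least squares fits per probe were moderated with limma 3.58.1 in R 4.3.3 and tested on simulated data. P-values were adjusted by Benjamini-Hochberg over all probes of a comparison, and intervals are 95%. The difference at 1 and 2 h was fitted on 12 arrays with time as a factor. The subtracted difference and the responses were fitted on 24 arrays with a mean per group. The arrays were not treated as paired. Deviations of S2WT and U0126 arrays with the same replicate number correlated between -0.12 and 0.10, and of those with different numbers between -0.14 and 0.19. Such weak correlations cannot show whether arrays of the same number belong together.

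Probes were named from the platform annotation (7348 with 1 symbol, 399 with several, 1229 with none), of which 7274 matched RefSeq. Promoters are from RefSeq (GRCm38.p6). Text names the 5 probes of 1 symbol with the smallest p in each direction, as fewer than 3 passed, the members of the TGF-β early target and ERK output lists, probes called in S3WT and S2KO, and up to 4 members of other lists with the smallest p. The members and the lists were chosen with earlier results of these data known. Tried alternatives were no centring, scaling to a common spread, complete probes, a fit over all 74 arrays, array weights, a replicate block, averaging the probes of a gene, either baseline time alone and leaving out each array.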

Additional observations from a re-analysis of the deposited data

Results flagged for a closer look

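Only probes with the smallest p, members of the 2 target lists and probes called in S3WT and S2KO were examined here. For 4 of them, every 1 and 2 h array of one set lay on one side of the mean of its own 0 and 0.3 h arrays, and every array of the other set lay on the opposite side. The share of all probes with this pattern was not counted, and probes picked by a small p are prone to it. Slc29a1 on probe 7 differed by -0.71 after subtraction and Pear1 on probe 2718 by -2.02, both lower in U0126. Sf3a1 on probe 7135 differed by 0.83 and Tmprss6 on probe 6076 by 2.90, both higher in U0126. All were named for their small p in that comparison, none passed the test of that difference over all probes, each having a limma adjusted p of 0.931, and the cause was not tested. For Pear1 and Tmprss6 the sets already differed at 0 and 0.3 h, by 1.92 and -1.96, and at 1 and 2 h they differed by -0.10 and 0.71.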

How the results depend on the processing

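The difference of U0126 from S2WT at 1 and 2 h had 0 limma calls under every alternative tried, including a replicate block (0 calls, 313 probes at an unadjusted p under 0.05) and each array left out (0 to 0 calls, 184 to 332 probes with unadjusted p under 0.05). The same held for the difference at 0 and 0.3 h (0 to 0). Without centring the median of all differences was 0.22, and 0.25 after subtraction, with 1198 and 644 probes at an unadjusted p under 0.05. The subtracted difference had 1 call with array weights and 1 with the 0.3 h baseline alone, the same unnamed probe, and 0 to 1 with an array left out. The difference at 1 h had 4 calls with group means over all 74 arrays, and 0 to 1 with an array left out. The difference at 2 h had 0 to 3 and its change from 1 h 0 to 1 with an array left out. The S2WT response had 2 calls with scaled arrays, 5 on complete probes, 4 over 74 arrays, 15 with array weights, 3 with probes averaged by gene, 3 with the 0 h baseline alone and 1 to 15 with an array left out, 15 without S2WT 0.3 h replicate 2, 8 without U0126 1 h replicate 1 and 7 without S2WT 0 h replicate 2. The U0126 response had 0 without centring, with a replicate block and with the 0 h baseline alone, 2 with scaled arrays and with the 0.3 h baseline alone, 3 on complete probes, 4 over 74 arrays, 11 with array weights and 0 to 24 with an array left out, 24 without U0126 0.3 h replicate 3 and 8 without U0126 1 h replicate 1. Arid5b kept its call in U0126 under 11 of 32 alternatives and lost it under 21, with values of -0.82 to -0.67. Of 3999 values of named genes under alternatives, 3959 were counted as the same. These kept their side of the threshold, and either kept their sign or turned it with a shift smaller than the spread between arrays. Only the Arid5b responses among the named results were called with all arrays, so most values had no call to lose. Size was not compared where the sign held, and the Cep97 difference of -1.80 at 1 and 2 h reached -0.41 under 1 alternative. A further 19 values also kept their side but turned sign with a larger shift, 21 lost a call (Arid5b in U0126) and 0 called values changed sign. Of 157 named results, 74 changed sign at least once while not called. The causes were not tested.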
